A study of Mus musculus with 11 samples.

Results

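The genes described here are the nuclear genes of oxidative phosphorylation. They were chosen by gene symbol from the RNA-seq count table of the study: every row whose symbol begins with Nduf, Uqcr, Atp5 or Cox followed by a digit from 4 to 8, together with Sdha, Sdhb, Sdhc and Sdhd. The rule took 87 of the 12647 rows and used no measured value. They comprise 35 subunits and 8 assembly factors of complex I, 4 subunits of complex II, 8 of complex III, 16 genes of complex IV and 16 of complex V. Ndufa4, whose name is that of a complex I gene, is placed with complex IV, where its protein is now assigned, and Atp5sl is placed with the assembly factors of complex I. All 87 genes passed the filter on low counts, and 84 of them had at least 100 counts in every library.

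Oxidative phosphorylation makes ATP in the inner mitochondrial membrane. Complex I (NADH dehydrogenase) and complex II (succinate dehydrogenase, which is also an enzyme of the citric acid cycle) pass electrons to ubiquinone, complex III passes them on to cytochrome c, and complex IV (cytochrome c oxidase) passes them to oxygen, while complex V (ATP synthase) uses the proton gradient made on the way. The catalytic cores of complexes I, III and IV and a part of complex V are encoded in mitochondrial DNA, and all other subunits are nuclear genes. Quiescent hematopoietic stem cells are known for a low use of respiration, and wild-type p53 is known to promote it.

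RNA was sequenced from LSKs (Lin-Sca1+ Kit+ bone marrow cells, a gate that holds stem cells and multipotent progenitors) of 3 genotypes, p53+/+, p53R248W/+ and p53-/-, and each genotype has 3 libraries. The mice were 8 to 12 weeks old and tumor free, and received no treatment named in the labels. The methods give a backcross to C57BL/6 for p53+/+ and p53R248W/+ mice and name no background for p53-/- mice. The p53+/+ mice carry the humanized knock-in (HUPKI) allele of p53 under its own mouse promoter, the R248W change sits in such an allele and is heterozygous, and the part of the gene deleted in p53-/- mice is not given in the sources used here. Whether each library came from a different mouse is not stated, so p-values measure the spread between these libraries.

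Total counts ranged from 18021375 to 29750702 per library. Trp53 itself had 125, 207 and 376 CPM (counts scaled to a common library size) in p53+/+ replicates 1 to 3. It had between 219 and 240 CPM in p53R248W/+ libraries and between 112 and 129 CPM in p53-/- libraries, so that p53+/+ and p53-/- libraries overlapped (edgeR, adjusted p = 0.0953). The HUPKI allele encodes mostly human p53 sequence, and how its reads were counted on mouse Trp53 is not stated. Trp53 levels in p53-/- libraries may thus not be comparable with those of the other genotypes. Cdkn1a, the p21 gene and a direct target of p53, was between 43.6 and 67 CPM in p53+/+ and between 8.27 and 17.8 CPM in p53-/- libraries, and fell by 2.07 on the log2 scale (adjusted p = 0.00914, edgeR). The 6 marker genes of the LSK gate summed to between 3170 and 3906 CPM in all libraries, while the hemoglobin genes, Cd3e, Cd3g, Pax5 and Ly6g had no row in the table. Among other granulocyte genes, S100a8 was at 799 CPM in p53+/+ replicate 2 and 548 CPM in p53R248W/+ replicate 2 and between 4.62 and 44.3 CPM in the other libraries. Ltf was at 559 and 312 CPM in the same libraries and between 0.687 and 16.4 CPM in the others. The table held 0 mitochondrially encoded genes, so each complex is described by its nuclear genes alone.

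Levels of different genes were compared per length, as RPKM (CPM divided by the length in kilobases), in p53+/+ libraries. The 87 genes were among the abundant transcripts of LSKs. Their median level was 223.5 RPKM against 11.23 RPKM for all 12625 genes tested, 67 of them were in the top 10% of genes, and 3 were below the median of all genes. The highest was Ndufa4, with 1303 ± 285.6 RPKM (SD, n = 3), and the lowest was Cox7a1, the heart and muscle form of a complex IV subunit, with 2.12 ± 0.121 RPKM, a ratio of 614.

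Within complex I, the subunit genes ranged from 46.2 ± 11.4 RPKM for Ndufa11 to 566 ± 110 RPKM for Ndufb8 (SD, n = 3), both accessory subunits of the membrane arm, with a median of 175 RPKM. The assembly factors, which help to build the complex but are not part of it, lay lower, with a median of 25.9 RPKM. Their highest level was 44.8 ± 13.3 RPKM for Ndufaf2 and their lowest was 6.30 ± 1.18 RPKM for Ndufaf5. The lowest subunit and the highest assembly factor did not differ beyond their spread.

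Complex II, with 4 genes, had the most even levels of the complexes. Sdhb, the iron-sulfur subunit, had 309 ± 49.7 RPKM, Sdhd, a membrane anchor, 301 ± 60.5 RPKM, the flavoprotein subunit Sdha 256 ± 33.2 RPKM, and Sdhc, the other anchor, 153 ± 18.7 RPKM (SD, n = 3), a ratio of 2.03 from the highest to the lowest. In complex III, Uqcr11, a small accessory subunit, was highest with 663 ± 171 RPKM and Uqcrc2, a core protein, was lowest with 119 ± 13.2 RPKM. In complex V, Atp5b, the catalytic beta subunit of the F1 head, was highest with 1162 ± 85.8 RPKM, and Atp5s, a regulatory protein also known as factor B, was lowest with 20.8 ± 2.61 RPKM.

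**Figure D1:**
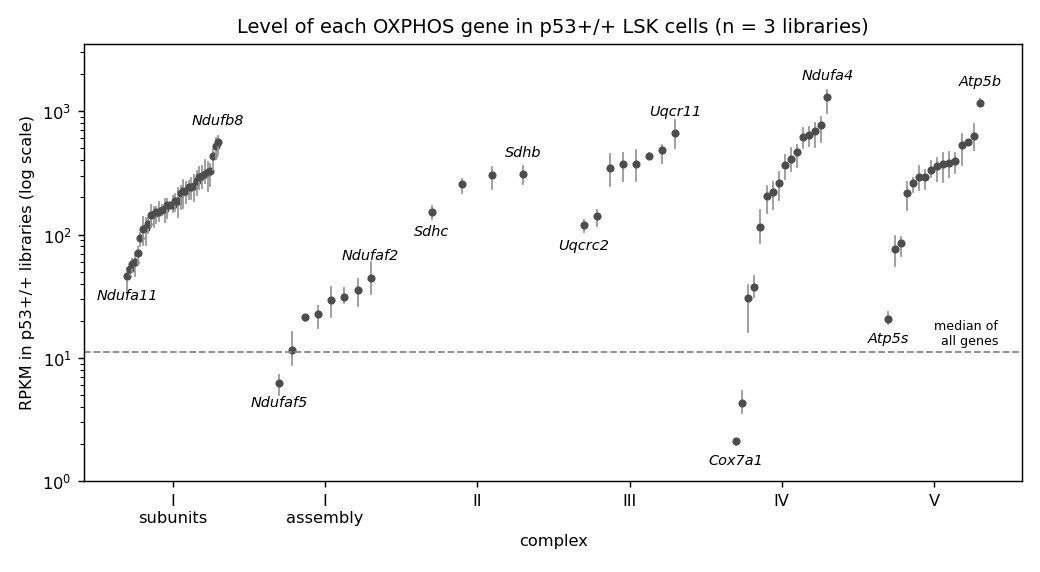
Each point is the mean RPKM (log scale) of one of the 87 genes over 3 p53+/+ libraries and its line runs from the lowest to the highest library, with genes ordered by level inside each complex. The assembly factors of complex I sit below most subunits, and complex IV spans the widest range, from Cox7a1 at 2.12 RPKM to Ndufa4 at 1303 RPKM.

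Complex IV is the complex whose subunits have tissue forms, encoded by separate genes, and in LSKs the broadly expressed forms prevailed. Cox4i2, the lung form whose partner is Cox4i1, held between 0.156% and 0.644% of the Cox4 pair in the 9 libraries, measured as a share of summed RPKM. Cox6b2, the testis form, held between 4.10% and 5.78% of its pair with Cox6b1. Cox7a1 held between 0.312% and 1.14% of the Cox7a set, and Cox8b and Ndufa4l2 were not among the rows of the table. The 3 genes for the c ring of complex V, which encode the same mature protein, kept nearly fixed shares, with Atp5g3 between 61.2% and 64.6%, Atp5g1 between 26.0% and 29.6% and Atp5g2 between 7.47% and 9.56%.

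Cox6a2 stood apart from this evenness. Cox6a2 is the heart and skeletal muscle form of a small regulatory subunit of complex IV, and Cox6a1 is the form of most other tissues. Cox6a2 held 4.47% ± 1.39 of the pair in p53+/+ libraries and 4.63% ± 0.359 in p53R248W/+ libraries, but 1.21% ± 0.321 in p53-/- libraries (SD, n = 3 each). The share was 5.78%, 3.02% and 4.63% in p53+/+ replicates 1 to 3 and 1.11%, 0.947% and 1.56% in p53-/- replicates 1 to 3. The p53-/- libraries did not overlap with those of the other genotypes.

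Nuclear respiratory factor 1 (NRF1) is a transcription factor known for its sites in genes of the respiratory chain. RefSeq promoters on GRCm38.p6, which run from 250 bases before the start of a gene to 50 bases after it, were matched to 73 of the 87 genes by NCBI gene number, with 79 promoters. The 9 letters GCGCATGCG, searched on both strands, stood in 10 of the 79, or 12.7% (95% Wilson interval 7.02% to 21.8%), against 3.55% of the 12646 promoters of genes in the table and 1.75% of all 32851 promoters. The 9 letters and their reverse complement overlap, so that 1 place can match on both strands. AAGATGGCG, a core of YY1 sites, stood in 11.4% of the 79 promoters and 2.97% of those in the table, CCGGAAGT, a core of ETS family and GABPA sites, in 6.33% and 7.95%, and TCAAGGTCA, the half-site of estrogen-related receptors, in 2.53% and 0.261%. A p53 half-site, added to this search later, was found in 5.06% and 6.71%. Cox6a2 was not among the 73 genes matched to a promoter, so none of these searches covers it. A match is a run of letters and not a measured site.

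The windows below show the places before the start site where the NRF1 letters stand in genes of complexes I, IV and V, with up to 10 bases on each side, in capitals where either strand matches. The first lies on chromosome 4 (chr4:24897960-24897989, plus strand), 113 bases before the start of Ndufaf4.
Ndufaf4: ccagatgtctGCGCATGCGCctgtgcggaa
The next lies on chromosome 17 (chr17:56717692-56717721, plus strand), 60 bases before the start of Ndufa11.
Ndufa11: cctgcactgcGCGCATGCGCgcacgccttg
That of Cox6a1, the partner of Cox6a2, lies on chromosome 5 (chr5:115349101-115349130, minus strand), 162 bases before the start.
Cox6a1: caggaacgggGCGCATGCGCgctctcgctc
Those of 2 complex V genes lie 42 bases before the start of Atp5g2 (chr15:102671070-102671099, minus strand) and 50 bases before that of Atp5k (chr5:108434430-108434459, minus strand).
Atp5g2: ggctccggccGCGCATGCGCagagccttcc
Atp5k: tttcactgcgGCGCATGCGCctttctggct
Those of Ndufa8 (chr2:36049339-36049357, minus strand), 9 bases before the start and shown up to it, and of Atp5l (chr9:44920965-44920992, minus strand), 241 bases before the start, are the other 2 of these 7 places.
Ndufa8: tcgctggagaCGCATGCGC
Atp5l: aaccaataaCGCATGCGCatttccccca
The first 5 windows hold the letters as a palindrome of 10 bases, and those of Ndufa8 and Atp5l hold 9 of them.

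As a set, the 87 genes moved together from library to library. Their median deviation from the mean of the 9 libraries, in log2 CPM, was 0.03, -0.41 and 0.13 in p53+/+ replicates 1 to 3, 0.51, -0.15 and -0.16 in p53R248W/+ replicates 1 to 3 and -0.05, 0.26 and -0.17 in p53-/- replicates 1 to 3. Over genotypes the mean of these medians was -0.08 ± 0.29 in p53+/+, 0.07 ± 0.39 in p53R248W/+ and 0.01 ± 0.22 in p53-/- libraries (SD, n = 3 each), so the genotypes overlapped. Of the 87 genes, 73 were highest in p53R248W/+ replicate 1, where 17.4% of all genes were highest, and 58 were lowest in p53+/+ replicate 2, where 11.3% of all genes were lowest. The share of counts on the 87 genes ran from 1.75% in p53+/+ replicate 2 to 2.67% in p53R248W/+ replicate 1.

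The medians of all complexes took part in this movement, though not every gene did. Sdha went the other way, at -0.28 in p53R248W/+ replicate 1 and 0.28 in p53+/+ replicate 2. Atp5sl was at -0.02 in p53R248W/+ replicate 1. Ndufs1, Ndufa10 and Cox4i2 were at 0.12, 0.18 and 0.12 in p53+/+ replicate 2. In p53R248W/+ replicate 1 the median deviation was 0.52 for complex I subunits, 0.41 for the assembly factors, 0.40 for complex II, 0.62 for complex III, 0.57 for complex IV and 0.50 for complex V. In p53+/+ replicate 2 the medians ran from -0.43 in complex IV to -0.27 in complex II. Short genes outside oxidative phosphorylation moved in the same way: the 909 other genes under 1000 bases had a median deviation of 0.48 in p53R248W/+ replicate 1 and -0.32 in p53+/+ replicate 2, while other genes over 5000 bases had -0.35 and 0.28. The 87 genes are short, with a median length of 754 bases against 2877 bases for the other genes tested, and 54 of them are under 1000 bases. The 33 longer ones moved with them, by 0.40 in p53R248W/+ replicate 1 and -0.34 in p53+/+ replicate 2.

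**Figure D2:**
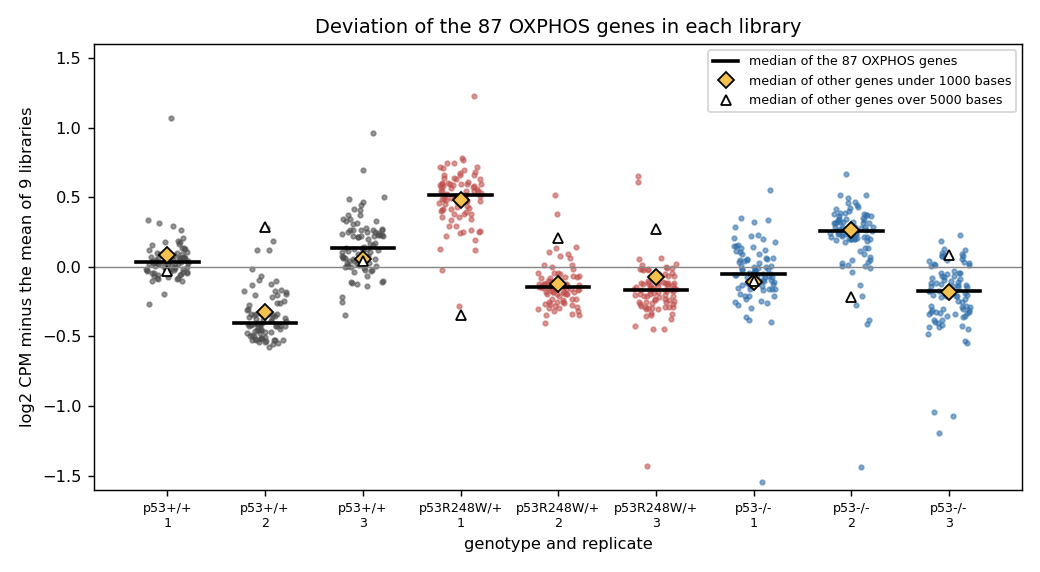
Each point is one of the 87 genes in one library, as log2 CPM minus the gene's mean over the 9 libraries, with replicates 1 to 3 of each genotype from left to right. The black median line follows the yellow diamonds of other genes under 1000 bases, which reach 0.48 in p53R248W/+ replicate 1 and -0.32 in p53+/+ replicate 2, and runs against the triangles of other genes over 5000 bases in both of these libraries.

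Between p53R248W/+ and p53+/+ LSKs, the comparison that asks what the mutant allele changes, 0 of the 87 genes passed the threshold. A gene passed where its p-value from the quasi-likelihood test of edgeR, adjusted over all genes tested, was under 0.05. Over all 12625 genes tested, 0.00792% passed it, which is 1 gene. Before adjustment, 0 of the 87 genes had a p-value under 0.05, against 0.958% of all genes, and DESeq2 and limma-voom also called 0 of the 87. The libraries of the genotypes did not overlap for 1 gene that was higher in p53R248W/+ (2.66% of all genes) and for 0 genes that were lower (2.38% of all genes). That gene was Cox7a1, at 0.81, 0.80 and 0.73 CPM in p53+/+ and 1.04, 0.87 and 1.33 CPM in p53R248W/+ replicates 1 to 3, which rests on between 13 and 29 counts per library.

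The fold changes in this comparison were small and mostly positive. The median log2 fold change of the 87 genes was 0.13, with 79 above 0 and 8 below, against 0.01 for all genes and 0.16 for the other genes under 1000 bases. By complex the medians were 0.15 for complex I subunits, 0.10 for assembly factors, 0.03 for complex II, 0.16 for complex III, 0.17 for complex IV and 0.10 for complex V. Of the 87 genes, 0 differed by more than 1.5-fold, where 771 of all 12625 genes tested did. Among complex I subunits the values ran from -0.09 (SE 0.17) for Ndufa10 to 0.31 (SE 0.22) for Ndufb3, both accessory subunits. In complex II they ran from -0.19 (SE 0.18) for Sdha to 0.12 (SE 0.21) for Sdhc, and in complex III from -0.02 (SE 0.16) for the core protein Uqcrc1 to 0.25 (SE 0.24) for Uqcrb, a subunit at the ubiquinone site. In complex IV Cox4i2 was at -0.28 (SE 0.59) and Cox7a1 at 0.47 (SE 0.60), and in complex V Atp5a1, the alpha subunit, was at -0.01 (SE 0.17) and Atp5e, the epsilon subunit, at 0.28 (SE 0.29). Among the assembly factors Ndufaf1 was at -0.02 (SE 0.21) and Ndufaf7, a methyltransferase needed to assemble complex I, at 0.22 (SE 0.21). The adjusted p-value in edgeR was 1 for each of them.

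The sign of this median rested on 1 library. Without p53R248W/+ replicate 1 the median of the 87 genes was -0.14 and without p53+/+ replicate 2 it was 0.0007, with 0 genes past the threshold in both fits. With the trend on gene length removed from each library, a step chosen after seeing the data, the median was 0.004 and again 0 genes passed.

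Between p53-/- and p53+/+ LSKs, the comparison for loss of p53, 1 of the 87 genes passed the threshold, against 3.5% of all genes, and 2 were under 0.05 before adjustment, against 23.4% of all genes. The gene that passed was Cox6a2 of complex IV. It had 25.8, 10.7 and 24.0 CPM in p53+/+ replicates 1 to 3, 28.9, 17.6 and 18.7 CPM in p53R248W/+ replicates 1 to 3, and 4.14, 4.47 and 5.30 CPM in p53-/- replicates 1 to 3. The highest p53-/- library was below the lowest library of the other genotypes. Cox6a2 fell by 2.12 on the log2 scale (SE 0.35, adjusted p = 0.0145, edgeR), which is 4.34-fold. The call was lost in edgeR when p53+/+ replicate 3 was left out (adjusted p = 0.0733), and likewise p53-/- replicate 1 (0.0588) or p53-/- replicate 2 (0.0598), while the log2 fold change stayed between -2.42 and -1.90 over 20 alternatives.

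Cox6a1, the broadly expressed partner, had 340, 278 and 400 CPM in p53+/+ replicates 1 to 3 and 299, 378 and 270 CPM in p53-/- replicates 1 to 3, so its libraries overlapped. In GRCm38.p6 Cox6a2 lies on chromosome 7 (chr7:128205435-128206366, minus strand) and shares exon bases with Itgad, an integrin gene on the plus strand. The kit named in the labels does not mark strand, so reads from Cox6a2 and Itgad cannot be told apart where they overlap. Itgad was assigned between 0.497 and 2.54 CPM over the 9 libraries, and its log2 fold change was -1.10 (SE 0.67, adjusted p = 0.348, edgeR). In all, 23 of the 87 genes share exon bases with another gene in GENCODE M21, among them Atp5j, a subunit of the stalk of complex V, with Gabpa on the opposite strand.

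Summed markers of several other cell types differed between these genotypes too, where 3.5% of all genes passed the threshold. The 5 B lymphoid markers tested overlapped, at 89 to 104 CPM in p53-/- and 74.6 to 124.4 CPM in p53+/+ libraries, with a median log2 fold change of -1.46. The 6 megakaryocyte markers summed to between 123.5 and 140.1 CPM in p53-/- and between 141.9 and 195.1 CPM in p53+/+ libraries. In both lists 0 passed. Of 8 stem cell markers, 1 rose in p53-/- LSKs, and their summed level was between 1133 and 1226 CPM in p53-/- and between 560 and 796 CPM in p53+/+ libraries. Of 7 markers of cycling cells, 2 fell. The 11 granulocyte and monocyte markers tested summed to between 1661 and 2132 CPM in p53-/-, between 2448 and 7320 CPM in p53+/+ and between 3920 and 9075 CPM in p53R248W/+ libraries, with 0 past the threshold against p53+/+. The 4 erythroid markers tested summed to between 19.6 and 21.6 CPM in p53-/-, between 45.1 and 60.3 CPM in p53+/+ and between 39.8 and 58.3 CPM in p53R248W/+ libraries, and 1 of them, the transferrin receptor gene Tfrc, which cycling cells also express, fell by 2.13 on the log2 scale (SE 0.25, adjusted p = 0.00312, edgeR). The 6 markers of T and NK cells tested summed to between 215 and 278 CPM in p53-/- and between 335 and 366 CPM in p53+/+ libraries. In p53R248W/+ libraries they summed to between 347 and 442 CPM, and 0 were past the threshold against p53+/+. Most of this sum was 1 gene, Nkg7, at 313, 308 and 328 CPM in p53+/+ and 218, 267 and 197 CPM in p53-/- replicates 1 to 3. Gzma went the other way, with means of 0.658 CPM in p53+/+ and 0.879 CPM in p53-/- libraries. A list of plasmacytoid dendritic cell markers was chosen after seeing the data, and 7 of its 11 genes were tested. They summed to between 351 and 373 CPM in p53-/-, between 560 and 590 CPM in p53+/+ and between 587 and 724 CPM in p53R248W/+ libraries. Irf8, a transcription factor of that lineage that is also active in other progenitors, fell by 1.15 on the log2 scale (SE 0.20, adjusted p = 0.0183, edgeR), while Siglech, a defining surface marker, was between 0.452 and 2.70 CPM in all libraries. The part of these cells in the level of Cox6a2 was not tested, and in bulk samples fewer cells of a type cannot be told apart from less RNA per cell.

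**Figure D3:**
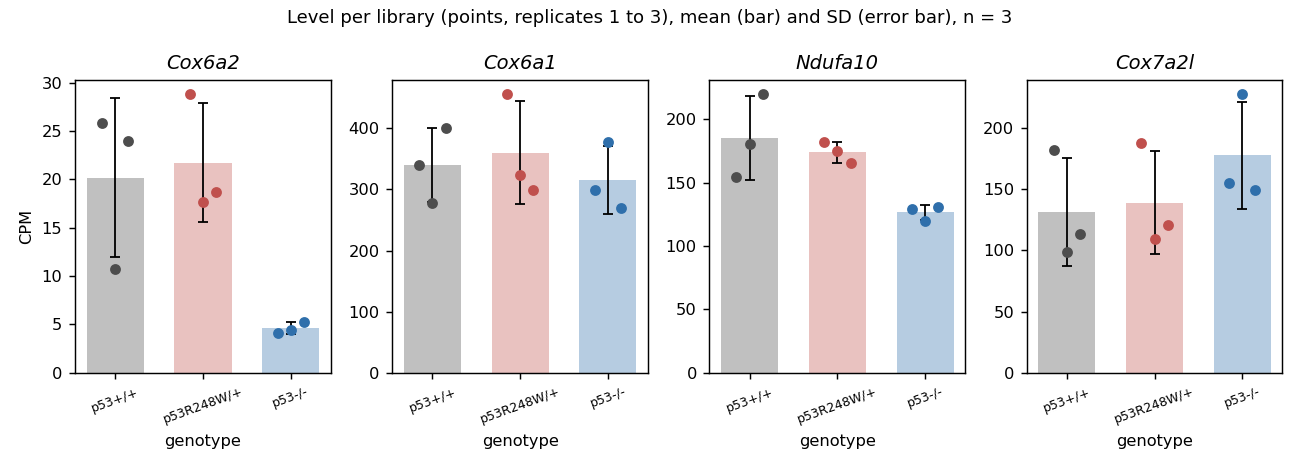
CPM of 4 genes in each library (points), with the mean of each genotype (bar, axis from 0) and its SD (error bar, n = 3 libraries). Cox6a2 is below 5.5 CPM in each p53-/- library and above 10 CPM in each of the others, Ndufa10 is lower in p53-/- without passing the threshold, and the genotypes overlap for Cox6a1 and Cox7a2l.

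Ndufa10, an accessory subunit of complex I, was the only other gene of the 87 that did not overlap and was lower in p53-/- LSKs, where 2 genes of the 87 against 16% of all genes did so. It had 154, 181 and 220 CPM in p53+/+ and 130, 120 and 131 CPM in p53-/- replicates 1 to 3. All p53-/- libraries were below all p53+/+ libraries, at a log2 fold change of -0.55 (SE 0.17, adjusted p = 0.0797, edgeR), which missed the threshold. DESeq2 called it (adjusted p = 0.0212), as the only 1 of 20 alternatives, over which the adjusted p-value ran from 0.0212 to 0.281.

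In the other direction, 5 of the 87 genes were higher in p53-/- libraries with no overlap, against 15.4% of all genes, and 0 of these passed the threshold. They were the assembly factors Ndufaf1, Ndufaf7 and Atp5sl, the complex I subunit Ndufa9 and the complex II anchor Sdhc. Ndufaf1 had 63.5, 38.2 and 51.7 CPM in p53+/+ and 71.3, 73.0 and 65.4 CPM in p53-/- replicates 1 to 3. Its log2 fold change was 0.45 (SE 0.21, adjusted p = 0.218, edgeR). Ndufa9 had 270, 200 and 223 CPM in p53+/+ and 326, 339 and 274 CPM in p53-/- replicates 1 to 3, with a log2 fold change of 0.44 (SE 0.24, adjusted p = 0.288, edgeR). For both genes the lowest p53-/- library lay only a little above the highest p53+/+ library.

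The fold changes of the 87 genes in p53-/- against p53+/+ LSKs had a median of 0.05 on the log2 scale, with 59 above 0 and 28 below, against -0.001 for all genes and 0.06 for the other genes under 1000 bases. It was -0.083 without p53+/+ replicate 2 and -0.075 without p53-/- replicate 2, and 0.16 without p53+/+ replicate 3. The medians were 0.08 for complex I subunits, 0.19 for assembly factors, 0.09 for complex II, 0.06 for complex III, 0.002 for complex IV and 0.06 for complex V. Cox6a2 was the 1 gene of the 87 that differed by more than 1.5-fold, as 3280 of all genes tested did. Complex II ran from -0.22 (SE 0.18) for Sdha to 0.33 (SE 0.21) for Sdhc, and complex III from -0.36 (SE 0.27) for Uqcrq, an accessory subunit, to 0.25 (SE 0.21) for Uqcrfs1, the Rieske iron-sulfur protein. Complex V ran from -0.21 (SE 0.27) for Atp5l, the membrane subunit g, to 0.25 (SE 0.24) for Atp5o, a stalk subunit. The lowest assembly factor was Ndufaf2 at -0.12 (SE 0.27). The highest gene placed with complex IV was Cox7a2l, a supercomplex factor and not a tissue form, at 0.44 (SE 0.28). None of them passed the threshold in edgeR.

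Cox7a2l took a larger share of the Cox7a set (Cox7a1, Cox7a2 and Cox7a2l) in p53-/- libraries, 41.0% ± 2.10, than in p53R248W/+ libraries, 31.5% ± 1.71 (SD, n = 3 each). The share was 39.9%, 34.4% and 27% in p53+/+ replicates 1 to 3, a range that reaches into that of the p53-/- libraries, at 39.1%, 40.7% and 43.3%. The level of Cox7a2l itself did not pass the threshold in any comparison, with an adjusted p-value of 0.368 in edgeR for p53-/- against p53+/+.

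**Figure D4:**
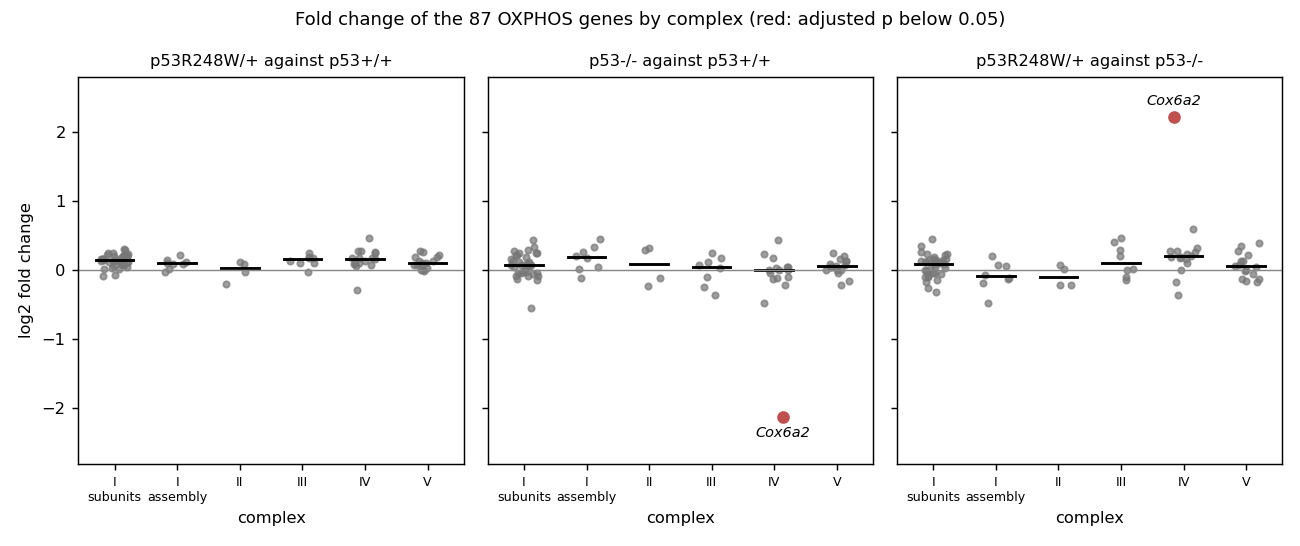
Log2 fold change of each of the 87 genes (points) by complex in the 3 comparisons, with the median of each complex (black line) and genes past the threshold in red. Cox6a2 is the only red point in the panels that hold p53-/- libraries, at -2.12 and 2.23, and the panel of p53R248W/+ against p53+/+ has no red point.

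Between p53R248W/+ and p53-/- LSKs, which sets the mutant allele against loss of p53, 1 of the 87 genes passed the threshold, against 3.44% of all genes, and 3 were under 0.05 before adjustment, against 21% of all genes. The gene was again Cox6a2, which was 4.69-fold higher in p53R248W/+ LSKs (log2 fold change 2.23, SE 0.35, adjusted p = 0.00885, edgeR). It passed in 20 of 20 alternatives, with the largest adjusted p-value at 0.0477. This comparison shares its p53-/- libraries with the one before, so the calls are not independent. Against p53+/+ the log2 fold change of Cox6a2 in p53R248W/+ LSKs was 0.11 (SE 0.33, adjusted p = 1, edgeR).

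No overlap was found for 2 genes that were higher in p53R248W/+ LSKs, Cox6a2 and Ndufa10 (12.1% of all genes), and for 2 that were lower, the assembly factors Ndufaf1 and Atp5sl (12% of all genes). Ndufa10 had 182, 175 and 165 CPM in p53R248W/+ replicates 1 to 3, all above the p53-/- libraries given before, with a log2 fold change of 0.46 (SE 0.17, adjusted p = 0.138, edgeR). Ndufaf1 had 60.8, 46.5 and 43.7 CPM, all below the p53-/- libraries, with a log2 fold change of -0.47 (SE 0.21, adjusted p = 0.222, edgeR). Neither passed the threshold.

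The median log2 fold change of the 87 genes in this comparison was 0.08, with 58 above 0 and 29 below, against 0.02 for all genes and 0.12 for the other genes under 1000 bases. It was 0.09 for complex I subunits, -0.09 for assembly factors, -0.09 for complex II, 0.11 for complex III, 0.20 for complex IV and 0.06 for complex V. Without p53R248W/+ replicate 1 the median was -0.19 and 2 of the 87 genes passed the threshold, where 1559 of all genes tested (12.3%) passed in that fit against 434 with all libraries. Without p53-/- replicate 3 the median was -4.4e-05. The gene added without p53R248W/+ replicate 1 was Ndufa9, at a log2 fold change of -0.68 (adjusted p = 0.0394, edgeR) against -0.31 (SE 0.24, adjusted p = 0.496) with all libraries. With the trend on gene length removed the median was -0.11, where all genes had -0.05. Complex II ran from -0.21 (SE 0.25) for Sdhd to 0.08 (SE 0.20) for Sdhb, complex III from -0.15 (SE 0.21) for Uqcrfs1 to 0.47 (SE 0.27) for Uqcrq and complex V from -0.17 (SE 0.17) for Atp5a1 to 0.40 (SE 0.27) for Atp5l. The highest assembly factor was Ndufaf2 at 0.21 (SE 0.27). In complex IV the lowest was Cox7a2l at -0.35 (SE 0.28), and below Cox6a2 the highest was the low-count Cox7a1 at 0.60 (SE 0.60). None of these 9 genes passed the threshold in edgeR.

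Lists of related mitochondrial genes gave few calls, and calls were also rare among all genes. Of all genes tested, 3.5% passed for loss of p53 and 3.44% for the mutant allele set against that loss. With p53+/+ as the reference for the mutant allele, the share was 0.00792%. At such shares few calls are expected in lists of this size, and the lists were not tested against all genes. Of 46 electron carriers and assembly factors outside the 87 genes, 0 passed the threshold against p53+/+ in either genotype, and Coq10b, a coenzyme Q binding protein, was lower in p53R248W/+ than in p53-/- LSKs by a log2 fold change of -0.93 (SE 0.22, adjusted p = 0.0442, edgeR). Cycs, the cytochrome c gene, was between 102 and 184 CPM in p53+/+ and between 87.9 and 107 CPM in p53-/- libraries (adjusted p = 0.274, edgeR). Of 18 genes of the citric acid cycle, 21 of mitochondrial biogenesis and 21 of mitochondrial import, 0 passed in any comparison. Of 14 p53 targets that act in mitochondria and metabolism, 1 passed, Sesn1, a stress-induced regulator of mTORC1, which rose in p53-/- against p53+/+ LSKs by a log2 fold change of 0.76 (SE 0.16, adjusted p = 0.0332, edgeR).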

How the data were processed

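For 9 RNA-seq libraries the authors deposited a raw count of reads for each gene, with no normalization. The submitters' processing notes name STAR 2.5.2b, featureCounts of Subread 1.5.0, edgeR and the build mm10. The methods describe oligo(dT) selection and random hexamers, and the labels name a SMART-Seq v4 kit. The lowest total of a row was 37 counts, so the table holds no gene below that. Gene lengths deposited by the authors come from an annotation not given in the sources used here. The log2 fold changes, p-values and q-values deposited by the authors were not used, and the H3K27me3 ChIP-seq samples were not analysed here.

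The quasi-likelihood test of edgeR 4.0.16 (R 4.3.3) was run on all 9 libraries in 1 fit, after filterByExpr and TMM scaling. The p-values of 12625 genes were adjusted by Benjamini-Hochberg, with a threshold of 0.05. CPM and RPKM use TMM factors, and log2 CPM a prior count of 2. Intervals on shares of promoters cover counting error only. Libraries had a median of 20116602 counts and a biological coefficient of variation of 0.281. Genes were named if they passed the threshold, were the largest or smallest fold change in their complex, had the highest or lowest level in it, or belonged to an isoform set. Genes without overlap, list genes that passed and Cycs were named after their values were seen. The 87 genes and the lists were chosen with earlier results of these data known. The alternatives tried were limma-voom (limma 3.58.1), DESeq2 1.42.0, other scalings and filters, fits to 6 libraries, the replicate block and leaving out each library. Removal of the length trend (loess, span 0.5) and leaving out 1 library per genotype together were added after seeing the data. The tests were checked on simulated counts. Promoter sequences are from RefSeq (GRCm38.p6), and figures were made with matplotlib 3.10.9.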

Additional observations from a re-analysis of the deposited data

How the results depend on the processing

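Counts of genes past the threshold were 0, 1 and 1 for p53R248W/+ against p53+/+, p53-/- against p53+/+ and p53R248W/+ against p53-/- under most alternatives. DESeq2 gave 2 for p53-/- against p53+/+, both lower. Leaving out 1 library gave 0 to 1 for p53-/- against p53+/+ (0 to 1 lower) and 1 to 2 for p53R248W/+ against p53-/- (0 to 1 lower). Over all genes, DESeq2 called 6, 1552 and 1325 genes against 1, 442 and 434 in edgeR, fits to 6 libraries 1, 894 and 208, and the fit with the trend on gene length removed 2, 1192 and 883. The sources used here do not say whether the replicate numbers pair the libraries. In deviations from the genotype mean, 3 of 9 same-numbered pairs correlated above 0.1 (range -0.11 to 0.54), and other pairs ran from -0.48 to 0.18. Between p53+/+ and p53R248W/+ libraries the correlation was 0.36, 0.54 and 0.039 for replicates 1 to 3. In all, 7 of 9 libraries correlated best with their own number. Whether the libraries are paired was not tested. With the replicate block 0, 1 and 1 of the 87 genes passed, and 2, 882 and 672 of all genes.

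Leaving out p53+/+ replicate 2, p53R248W/+ replicate 1 and p53-/- replicate 2 together, the libraries of each genotype in which short genes outside the 87 lay farthest from their mean, gave medians of -0.27, -0.21 and -0.057, with -0.19, -0.23 and 0.063 for other genes under 1000 bases. Of the 87 genes, 21, 21 and 15 then had an unadjusted p-value below 0.05, against 5.54%, 24.7% and 28.3% of all genes, and 0, 1 and 1 passed after adjustment in edgeR. Among genes that did not pass, the log2 fold change against p53+/+ turned to -0.028 for Ndufb3, -0.14 for Ndufaf7, -0.25 for Sdhc, -0.21 for Uqcrb and -0.28 for Atp5e in p53R248W/+ and to -0.053 for Atp5o in p53-/-, and that of Sdhb in p53R248W/+ against p53-/- to -0.095. It was -0.0099 for Sdhb with the length trend removed and 0.00067 for Ndufaf1 in p53R248W/+ against p53+/+ with limma-voom.

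Leaving out 1 library at a time gave ranges that cross 0 for Atp5a1 (-0.18 to 0.098), Atp5e (-0.098 to 0.46), Cox4i2 (-0.67 to 0.14), Ndufa10 (-0.20 to 0.056), Ndufaf1 (-0.19 to 0.16), Sdhc (-0.16 to 0.27), Uqcrb (-0.067 to 0.39) and Uqcrc1 (-0.20 to 0.078) in p53R248W/+ against p53+/+, for Ndufaf2 in p53-/- against p53+/+ (-0.31 to 0.14), and for Ndufaf2 (-0.080 to 0.40) and Sdhb (-0.17 to 0.19) in p53R248W/+ against p53-/-. The cause of these turns was not tested. The NRF1 share was 16.5% with the 7 letters GCATGCG. The highest and lowest gene of each complex, 12 in all, were the same ones under upper-quartile factors and total counts, and 10 of 12 were by the median over 9 libraries. Depth was at least 18021375 counts, and among the 87 genes it limits Cox7a1 most, with between 7 and 29 counts per library.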

Other observations

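The letters AAGATGGCG, a core of sites of the transcription factor YY1, stood in 9 of the 79 promoters of these genes. In 7 of the 9 they lay on the strand of the gene and after its start, between bases 23 and 36 of the transcript, where 51.7% of the 375 promoters of genes in the table that hold these letters have them on that strand after the start. The 7 were those of Atp5sl, Ndufa9, Ndufc1, Ndufs4, Ndufs6, Ndufs7 and Atp5j2, which belong to complexes I and V, and Atp5sl counts with 2 promoters among the 9. The positions were read after the promoters had been searched, and no test was run.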
